A study of Mus musculus with 24 samples.

Results

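The 10 genes described here encode proteins of autophagy, of mitophagy and of its transcriptional control in mouse brown adipose tissue (BAT): Map1lc3a, Map1lc3b, Sqstm1, Becn1, Tfeb, Tfe3, Bnip3, Pink1, Ulk1 and Gabarapl1. They were chosen by name, through the Ensembl identifiers of the count table, and make up 10 of its 12615 genes. All 10 were in the table and all 10 passed the filter on low counts, which left 12485 genes for testing.

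Autophagy encloses cytoplasm or organelles in a double membrane and delivers them to the lysosome. The ULK1 kinase starts it, Beclin 1 helps a lipid kinase to mark the growing membrane, and small proteins of the ATG8 family (LC3 and GABARAP) are attached to that membrane, where receptors such as p62 (Sqstm1) bring in cargo. Mitophagy is the same route for mitochondria, reached through the PINK1 kinase on damaged mitochondria or through receptors such as BNIP3 in their outer membrane, and the transcription factors TFEB and TFE3 switch on genes of lysosomes and autophagy when they enter the nucleus. Brown adipocytes hold many mitochondria, and mitophagy is known for its part in removing them when the tissue becomes less thermogenic.

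BAT from 24 mice in 4 groups of 6 was measured by 3′-end mRNA sequencing, which counts a tag from the end of each transcript. Every mouse carried the floxed alleles TBLR1 fl/fl;TBL1 fl/fl and received tamoxifen. Mice labelled BATdKO also carried Ucp1CreERT2, a tamoxifen-inducible Cre driven by the Ucp1 promoter and so directed to cells that express Ucp1, while mice labelled Cre- had no Cre. Cells of the tissue that never express Ucp1 would keep both genes, and in which cells recombination took place was not tested. The 30°C groups were moved from 22°C to 30°C for 4 days, and the 8°C groups passed 1 day each at 18, 16 and 12°C before 6 days at 8°C. The ambient protocol began 3 weeks after the last tamoxifen injection, which was given at 5 weeks of age (the labels print years). The labels call the mice females, whereas the study's text names males for this cohort and gives a shorter cold exposure and fewer mice per group, after outliers had been taken out. Which libraries those were is not given in the sources used here, and all 6 of each group were used. All 30°C libraries carry one block of library numbers and all 8°C libraries another, so that temperature and library block cannot be told apart.

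Total counts ran from 699703, in Cre- mouse m4 at 30°C, to 11527643. Both deleted genes went against the labels at 8°C: Tbl1xr1 was at 39.8 ± 4.01 CPM (tag counts scaled to a fixed library total, mean ± SD, n = 6) in mice labelled BATdKO and at 20.9 ± 2.24 CPM in mice labelled Cre-, and its log2 fold change of 0.92 (SE 0.17) had an adjusted p of 0.00348 by edgeR's quasi-likelihood test. Tbl1x was also higher (log2 fold change 0.39, edgeR adjusted p = 0.0633). A 3′ tag outside the deleted exons does not measure the deletion, and whether these tags lie outside them was not tested, so each genotype below is the label. Mouse m6 of both 30°C groups had values of Tbl1xr1, Tbl1x and Ucp1 close to those of the other label, with Tbl1xr1 at 38.6 CPM in the one labelled Cre- and 17.0 CPM in the one labelled BATdKO. Ucp1, which encodes the uncoupling protein of brown adipocytes, rose in the cold by a log2 fold change of 3.10 in Cre- mice and 2.54 in BATdKO mice. The 9 listed brown adipocyte markers summed to between 661 and 5675 CPM per library. Their median sums were 1414 CPM in Cre- and 3079 CPM in BATdKO mice at 30°C, and 3630 and 4275 CPM at 8°C, with overlapping ranges. At 30°C, m6 was at 4162 CPM in the Cre- group and 1195 CPM in the BATdKO group. The part of these differences in the contrasts below was not tested. By contrast, 6 hepatocyte markers, led by albumin, summed to between 23852 and 34939 CPM in every library and group. How much of the RNA counted for the 10 genes came from that source was not tested. In bulk tissue, fewer cells of a type and less RNA per cell cannot be told apart.

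Averaged over all libraries, the 3′ tags of Sqstm1 (154 CPM) and Gabarapl1 (147 CPM) were the most abundant of the 10, followed by Map1lc3b at 106 CPM, Pink1 at 69.9 CPM and Map1lc3a at 64.2 CPM. Ulk1 at 34.6 CPM and Bnip3 at 32.5 CPM came next. The lowest were the transcription factor genes and Becn1, with Tfe3 at 13.9 CPM, Becn1 at 5.94 CPM and Tfeb at 3.59 CPM. These levels are scaled tags and are not divided by length, since the kit yields a tag per transcript and not per base. Each neighbour in the order overlapped the next in its range over libraries except Bnip3 and Tfe3, whose lowest and highest levels were 22.2 and 18.5 CPM. The lowest counts in a library were 7 for Becn1 and 0 for Tfeb.

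**Figure D1:**
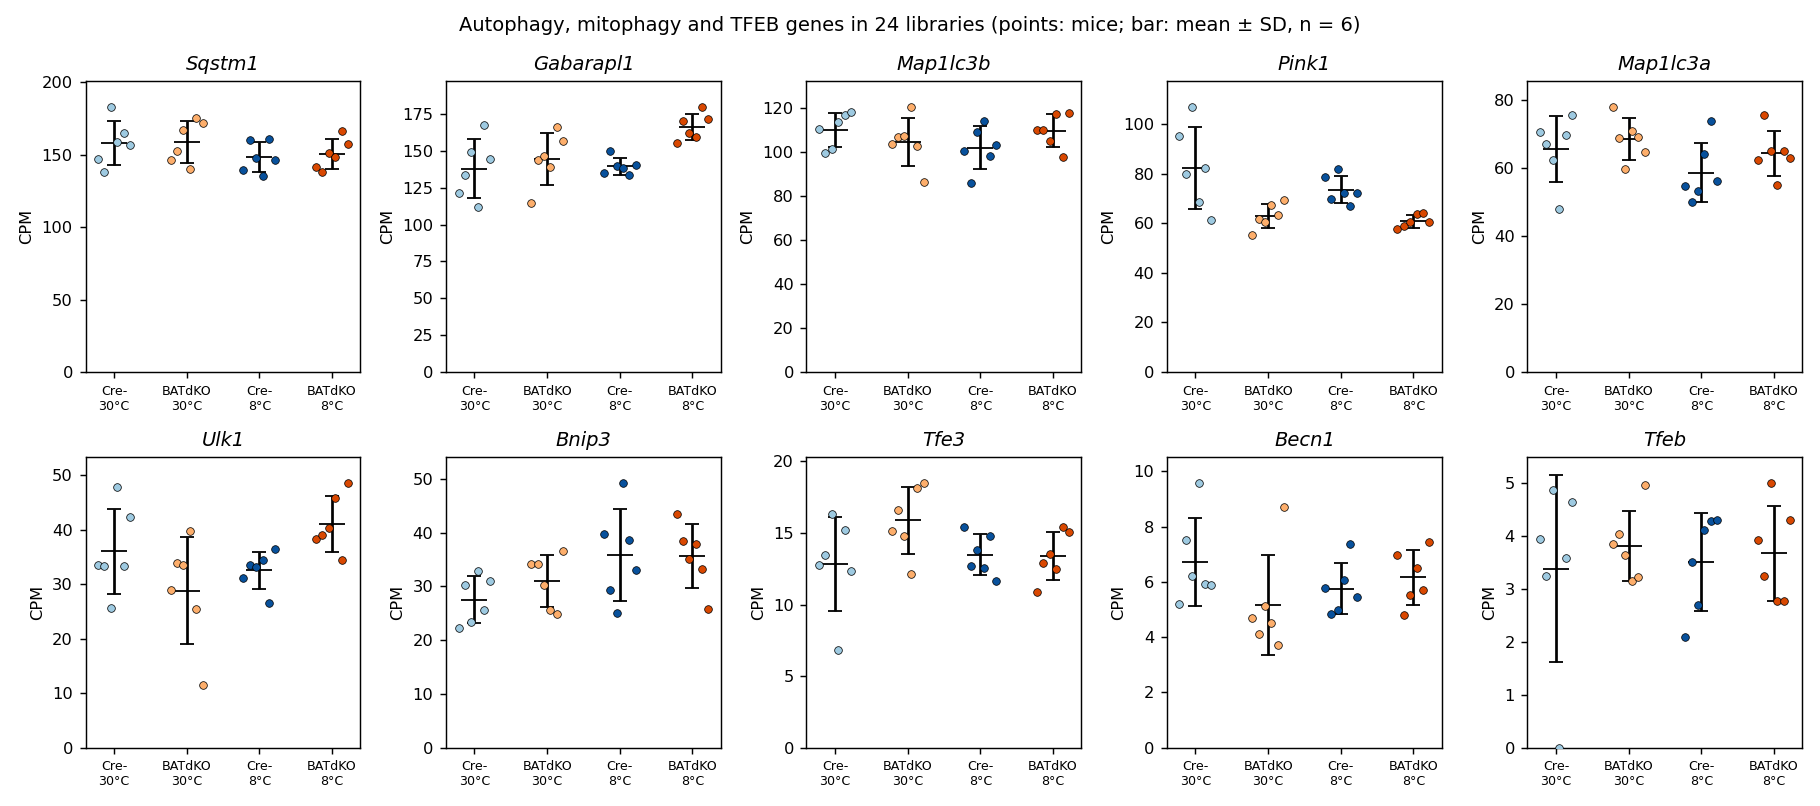
CPM (vertical axes, from 0) of each of the 10 genes in the 4 groups of genotype and temperature, with a point for each mouse and a bar for the mean ± SD (n = 6). Pink1 of all 6 BATdKO mice at 8°C lies below every Cre- mouse at 8°C, Gabarapl1 lies above every Cre- mouse there, and for every other gene and contrast of genotype or temperature the groups overlap.

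The question asked of genotype was whether these genes differed between mice labelled BATdKO and Cre- at the same temperature. At 8°C none of the 10 passed the adjusted threshold of 0.1, against 1.82% of all 12485 genes. At an unadjusted p under 0.05, 2 of the 10 passed, Pink1 and Gabarapl1, against 9.24% of all genes. The same genes were the 2 of 10 whose groups did not overlap, against 1.95% of all genes. At 30°C edgeR called 0 of 12485 genes at the adjusted threshold and therefore 0 of the 10, while 1303 genes (10.4%) and 1 of the 10, Pink1, had an unadjusted p under 0.05, and DESeq2 called 90 genes with Pink1 among them.

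Pink1 encodes the mitochondrial kinase that accumulates on depolarised mitochondria and recruits the ubiquitin ligase parkin. It lies on chromosome 4 of GRCm38 from 138313409 to 138326307 on the minus strand, and 2 small annotated RNA genes, Gm27646 and Mir7019, overlap its exons on the same strand. At 8°C its level ran from 67.0 to 81.7 CPM (median 72.1) in Cre- mice and from 57.5 to 64.0 CPM (median 60.4) in BATdKO mice. All 6 BATdKO mice were below all 6 Cre- mice. The fitted difference was 1.21-fold lower in BATdKO mice (log2 fold change -0.27, SE 0.096, edgeR p = 0.00882, adjusted p = 0.23), and the exact two-sided permutation test over 6 against 6 mice gave p = 0.00216, the smallest it can give.

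At 30°C Pink1 ran from 61.5 to 106.6 CPM (median 81.0) in Cre- mice and from 55.4 to 69.2 CPM (median 62.4) in BATdKO mice. The groups overlapped, through Cre- mice m6 and m4, which lay within the BATdKO range. The log2 fold change was -0.40 (SE 0.096, edgeR p = 0.000265, adjusted p = 0.149; exact permutation p = 0.0216). Leaving out Cre- mouse m2 or m6 or BATdKO mouse m4 or m6 at 30°C brought the adjusted p under the threshold, to 0.0881, 0.00593, 0.0975 and 0.0881.

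The mean genotype difference over both temperatures, a comparison added after these values were seen, was a log2 fold change of -0.34 for Pink1 (SE 0.068, 95% interval -0.48 to -0.20), with an adjusted p of 0.00657 by edgeR. Of the 10 genes, Pink1 alone passed in that comparison, in which 2.87% of all genes passed. The call was kept in all 24 fits that left out 1 mouse and under each alternative run, with log2 fold changes from -0.39 to -0.25. The 30°C and 8°C differences themselves did not differ by test (interaction 0.13, SE 0.14, edgeR adjusted p = 0.853). The cold log2 fold changes of Pink1 were -0.18 in Cre- mice (adjusted p = 0.328) and -0.05 in BATdKO mice (adjusted p = 0.869). In Cre- mice that value depended on which 30°C libraries were kept, as given in the closing section.

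Skeletal muscle RNA moved with Pink1 in part of the libraries. The 15 listed muscle markers in the table (of 17, all above 0 in at least 1 library) summed to 13612 CPM in Cre- mouse m3 and 6334 CPM in Cre- mouse m1 at 30°C, the libraries with the most Pink1, and to between 60.8 and 661 CPM in the other 4 Cre- mice and between 83.8 and 1379 CPM in BATdKO mice at that temperature. Without m1 and m3 the Pink1 difference at 30°C was -0.22 on the log2 scale (edgeR adjusted p = 0.694), that over both temperatures was -0.25 (adjusted p = 0.0283), and that at 8°C was -0.27 (adjusted p = 0.0653). At 8°C the muscle sum ran from 50.5 to 3291 CPM in Cre- mice and from 49.3 to 327 CPM in BATdKO mice, and the Cre- library with the lowest sum there, m3, had the most Pink1 of that group.

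**Figure D2:**
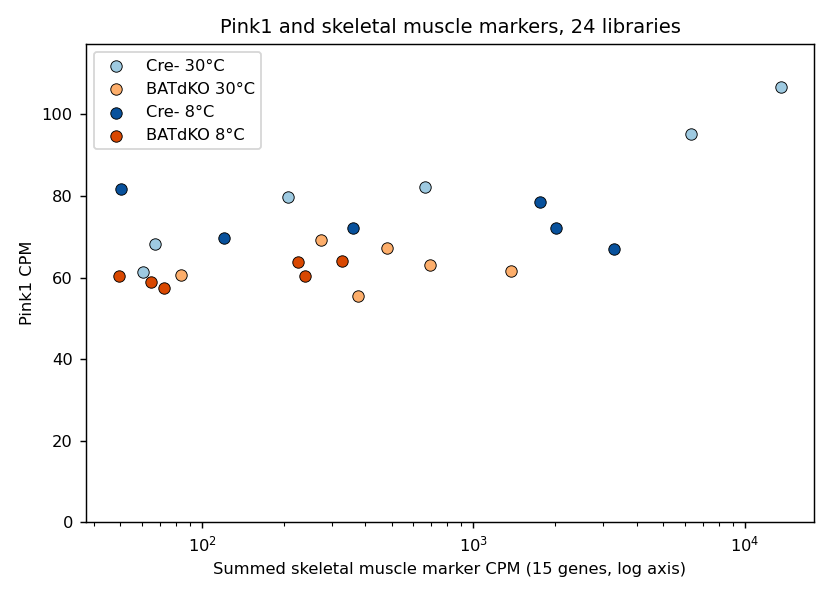
Pink1 CPM (vertical axis, from 0) against the summed CPM of 15 skeletal muscle markers (horizontal log axis), with a point for each of 24 libraries coloured by group. The Cre- libraries at 30°C with 6334 and 13612 CPM of muscle markers have the most Pink1, and the Cre- libraries at 8°C lie between 67.0 and 81.7 CPM of Pink1 over the whole width of their muscle sums.

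Gabarapl1, a member of the GABARAP branch of the ATG8 family, went the other way at 8°C. It lies on chromosome 6 from 129533160 to 129542346 on the plus strand, with exons of 1700101I11Rik overlapping on the other strand. Its level was from 133.9 to 149.9 CPM (median 139.2) in Cre- mice and from 155.5 to 179.4 CPM (median 166.1) in BATdKO mice. All 6 BATdKO mice were above all 6 Cre- mice. The log2 fold change was 0.25 (SE 0.085, edgeR p = 0.00575, adjusted p = 0.185), a 1.19-fold higher level, with an exact permutation p of 0.00216 that again follows from the non-overlap. Fitted on the 8°C mice alone, Gabarapl1 passed (adjusted p = 0.023), as did Pink1 (0.0233) and Ulk1 (0.0557), in a fit that called 477 genes in place of 227. At 30°C the groups overlapped over most of their ranges, from 112.1 to 167.3 CPM and from 114.3 to 166.0 CPM, and the log2 fold change was 0.06 (SE 0.085, adjusted p = 0.901).

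Ulk1, the kinase gene at the start of the pathway, had the largest positive difference between genotypes at 8°C among the 10. It lies on chromosome 5 from 110784488 to 110810097 on the minus strand. At 8°C it ran from 26.6 to 36.4 CPM (median 33.3) in Cre- mice and from 34.4 to 48.5 CPM (median 39.7) in BATdKO mice, and 5 of 6 BATdKO mice were above every Cre- mouse. The log2 fold change of 0.34 (SE 0.18) had an adjusted p of 0.596 by edgeR. At 30°C it ran from 25.7 to 47.8 CPM (median 33.4) in Cre- mice and from 11.4 to 39.7 CPM (median 31.3) in BATdKO mice. The value of 11.4 was in mouse m6, whose deleted-gene levels were close to those of mice labelled Cre-. The difference of the genotype effects between temperatures was 0.60 (SE 0.25, edgeR adjusted p = 0.542), and 0.35 (adjusted p = 0.487) without both m6 libraries.

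None of the remaining genes passed the threshold between genotypes with all 24 libraries. Both LC3 genes, whose proteins are the usual marks of autophagosomes, had log2 fold changes at 8°C of 0.13 (Map1lc3a, 95% interval -0.07 to 0.34) and 0.10 (Map1lc3b, -0.06 to 0.27). Sqstm1, the p62 cargo receptor gene, was at 148 ± 10.4 CPM in Cre- mice and 150 ± 10.4 CPM in BATdKO mice at 8°C (SD, n = 6), with an interval of -0.14 to 0.18 for the log2 fold change. Tfe3 was at 13.5 ± 1.44 and 13.4 ± 1.69 CPM in those groups (interval -0.25 to 0.26), and at 30°C it was at 12.8 ± 3.30 CPM in Cre- mice and 15.9 ± 2.37 CPM in BATdKO mice, with 3 of 6 BATdKO mice above every Cre- mouse (log2 fold change 0.22, interval -0.03 to 0.47, adjusted p = 0.56), the largest positive difference among the 10 at that temperature. Tfeb was at 3.50 ± 0.925 and 3.67 ± 0.896 CPM at 8°C (interval -0.45 to 0.48). The interval of Tfeb, with 0 to 50 counts per library, leaves room for changes that those of Sqstm1 and Map1lc3b do not. Becn1, which encodes the partner of the class III lipid kinase, had log2 fold changes of 0.06 at 8°C and -0.29 at 30°C (adjusted p of 1.00 and 0.599). The 30°C difference was -0.50 (adjusted p = 0.186) without BATdKO mouse m6 and passed without both m6 libraries (-0.53, edgeR adjusted p = 0.0867).

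**Figure D3:**
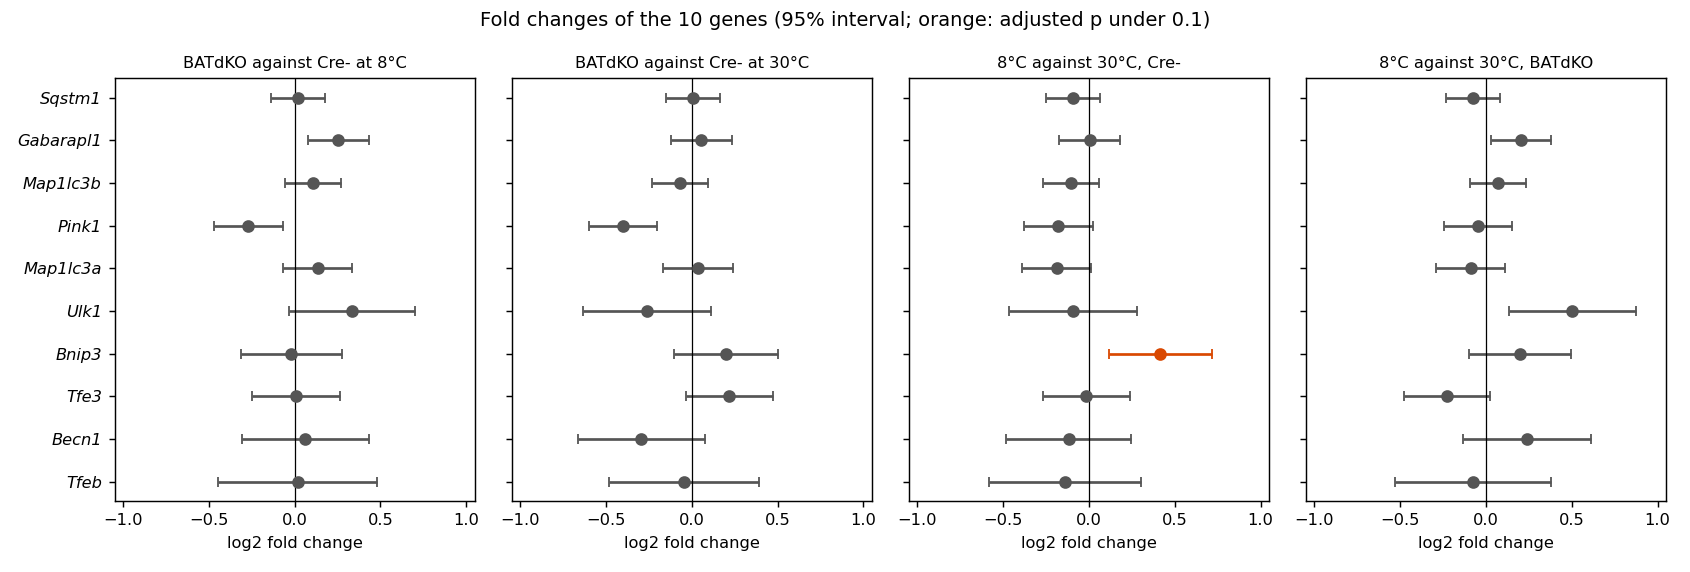
Log2 fold changes (points) with 95% intervals (bars) of the 10 genes, from the edgeR fit to all 24 libraries, for BATdKO against Cre- at 8°C and 30°C and for 8°C against 30°C in each genotype. Orange marks an adjusted p under 0.1, reached by Bnip3 in the cold in Cre- mice, while Pink1 lies below 0 in both genotype panels.

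The second question was whether cold changed these genes. In Cre- mice 1 of the 10 passed, Bnip3, which was higher at 8°C, against 9.15% of all genes in either direction and 5.57% higher. In BATdKO mice 0 of the 10 passed by edgeR, against 7.07% of all genes, while DESeq2 called 1, and 2 of the 10 (Ulk1 and Gabarapl1) had an unadjusted p under 0.05, against 17.2%. Both contrasts have their own 30°C and 8°C mice, and for no gene among the 10 did the cold response differ between genotypes by test (adjusted p of 0.542 or more), where 0.0961% of all genes passed. The median log2 fold change of the 10 was -0.10 in Cre- mice and 0.01 in BATdKO mice, beside -0.02 and -0.00261 over all genes tested.

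Bnip3 encodes an outer-membrane receptor that ties mitochondria to LC3 and GABARAP proteins, and is a known target of the hypoxia-inducible factor HIF-1. It lies on chromosome 7 from 138890836 to 138909519 on the minus strand, with exons of Gm45507 overlapping on the other strand. In Cre- mice it ran from 22.2 to 32.8 CPM (median 28.0) at 30°C and from 25.1 to 49.2 CPM (median 35.8) at 8°C. The groups overlapped, with 4 of 6 mice at 8°C above every mouse at 30°C. The rise was 1.34-fold (log2 fold change 0.42, SE 0.14, edgeR p = 0.00741, adjusted p = 0.0872), and the exact permutation test gave p = 0.0628. In BATdKO mice it ran from 24.9 to 36.6 CPM (median 32.3) at 30°C and from 25.8 to 43.6 CPM (median 36.5) at 8°C, a log2 fold change of 0.20 (SE 0.14, adjusted p = 0.523).

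The Bnip3 call was not stable. It was kept in 13 and lost in 11 of the 24 fits that left out 1 mouse, lost without Cre- m1, m3 or m5 at 30°C, without Cre- m1, m4, m5 or m6 at 8°C, and without BATdKO m2 or m3 at 30°C or m3 or m4 at 8°C, with adjusted p up to 0.282 and log2 fold changes from 0.30 to 0.50. It was also lost when only the Cre- groups were fitted (adjusted p = 0.132) and without the Cre- mice m1 and m3 of 30°C that held the most muscle RNA (0.29, adjusted p = 0.422).

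Since Bnip3 is the gene that passed, the 250 bases before its RefSeq start are printed, chr7:138909507-138909756 of GRCm38.p6, read 5′ to 3′ on the minus strand. Capitals mark 2 overlapping matches to ACGTG, the core of the hypoxia response element, one on each strand, which together form the E-box CACGTG at 108 bases before the start.
Bnip3 upstream: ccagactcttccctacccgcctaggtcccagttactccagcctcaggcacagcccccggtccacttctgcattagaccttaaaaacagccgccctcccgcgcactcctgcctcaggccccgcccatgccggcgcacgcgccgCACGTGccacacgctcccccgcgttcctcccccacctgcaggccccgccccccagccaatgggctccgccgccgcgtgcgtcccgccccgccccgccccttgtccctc

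RefSeq promoters, from 250 bases before to 50 after the start, were at hand for 8 of the 10 genes. Both strands were searched for 4 motifs. ACGTG was in Bnip3 alone of the 8, beside 21.8% of 27025 genes with a promoter, and so was the E-box CACGTG that contains it (8.09% of genes). TGACNNNGC, the core of the antioxidant response element, was in Map1lc3b alone (13.99% of genes). The lysosomal CLEAR element, an extended palindromic E-box to which TFEB binds, was in 0 of the 8 and in 0.37% of all genes with a promoter. A match or its absence in this window describes letters only.

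Besides Bnip3, whose call was not stable, other hypoxia-response genes were higher in the cold, and a shared cause was not tested. Of the other 9 tested hypoxia-response genes of a list of known HIF-1 targets and regulators, 6 rose in Cre- mice and 4 in BATdKO mice and none fell, with median log2 fold changes of 0.47 and 0.59. Over all tested genes 5.57% rose in Cre- mice and 3.76% in BATdKO mice, and the medians were -0.02 and -0.00261. In Cre- mice Egln1, a prolyl hydroxylase that marks HIF-1α for destruction, went from 21.7 ± 7.67 to 60.2 ± 14.3 CPM (log2 fold change 1.40, SE 0.23, edgeR adjusted p = 0.000182). Its relative Egln3 went from 8.96 ± 2.83 to 15.9 ± 2.89 CPM (0.93, adjusted p = 0.00479), Ldha, the lactate dehydrogenase gene, from 234 ± 31.7 to 330 ± 40.7 CPM (0.49, adjusted p = 0.000679), and Hif1a itself from 16.4 ± 1.90 to 22.4 ± 3.24 CPM (0.46, adjusted p = 0.00669). The other 2 were the collagen hydroxylase gene P4ha1 (0.95) and the glycolytic Pgk1 (0.37).

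In BATdKO mice Egln3 (1.29, adjusted p = 0.000144), Ldha (0.59, adjusted p = 0.000144), Pgk1 (0.59, adjusted p = 0.000244) and Egln1 (0.84, adjusted p = 0.0288) rose, whereas Hif1a had a log2 fold change of 0.04 (SE 0.10, adjusted p = 0.906). No gene of the list passed the test of the difference between genotypes in its cold response. Cell type markers also moved in the cold, in both directions. Median sums rose for brown adipocytes (1414 to 3630 CPM in Cre- mice, 3079 to 4275 CPM in BATdKO mice). They fell for macrophages (244 to 211 and 266 to 230 CPM) and for progenitors and stroma (206 to 175 and 191 to 160 CPM). Muscle and hepatocyte medians moved in opposite directions in the genotypes. Endothelial and red blood cell medians rose. The 7 endothelial markers summed to between 131 and 160 CPM at 30°C and between 161 and 223 CPM at 8°C in Cre- mice, without overlap, and to between 136 and 172 CPM and between 160 and 220 CPM in BATdKO mice. The 4 red blood cell markers in the table (of 5, without Alas2) had median sums of 3596 and 5274 CPM at 30°C and 8°C in Cre- mice and 3520 and 5305 CPM in BATdKO mice, with overlapping ranges. No endothelial or red blood cell marker in the table was at 0 throughout. The part of any cell type in the rise of the hypoxia-response genes was not tested. Counting Bnip3, the number called was between 6 and 8 in Cre- mice and 4 or 5 in BATdKO mice over all fits that left out 1 mouse and all alternatives.

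**Figure D4:**
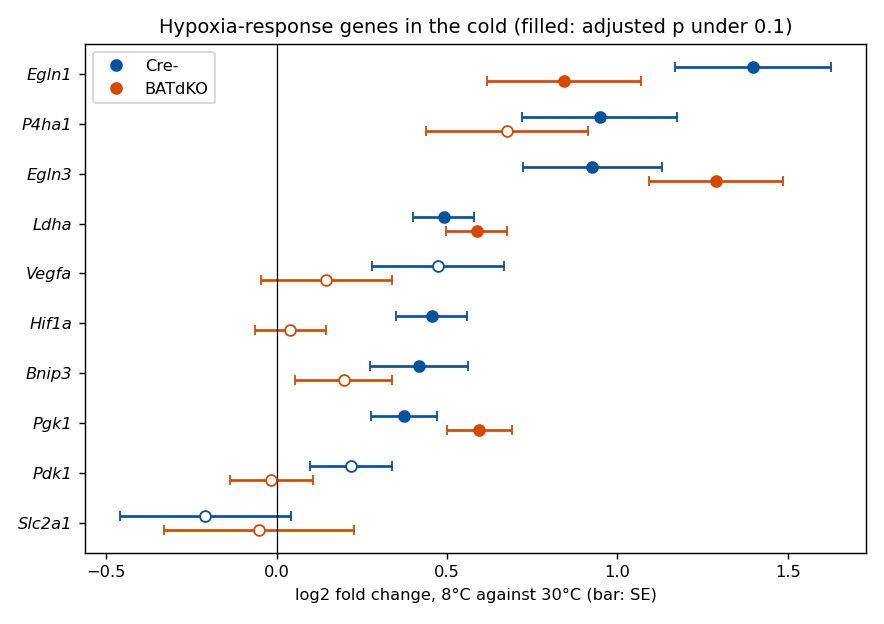
Log2 fold change at 8°C against 30°C (horizontal axis, bars are SE) of the 10 tested hypoxia-response genes in Cre- mice (blue) and BATdKO mice (orange), with filled points for an adjusted p under 0.1. Bnip3, at 0.42 and 0.20, lies among the smaller changes, below Egln1 at 1.40 and 0.84.

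All 7 genes of this list that rose in Cre- mice held ACGTG in a RefSeq promoter, as did 10 of the 11 listed genes, beside 21.8% of 27025 genes with a promoter. The list is of known HIF-1 genes, so the motif is part of why such genes are known. A further RefSeq promoter of Ldha held 0 matches. Bases just after the start were found in GENCODE transcripts for Bnip3, Egln1, P4ha1 and Pgk1. They were not found for Egln3, Hif1a and the Ldha promoter printed below, so distances to the start are less sure there. For comparison with Bnip3, 29 bases around the match nearest the start are given for the other 6. They read 5′ to 3′ on the strand of the gene, with the motif or its reverse complement in capitals.
Egln1 (chr8:124949306-124949334): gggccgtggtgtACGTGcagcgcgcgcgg
Egln3 (chr12:54204087-54204115): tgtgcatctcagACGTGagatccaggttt
Hif1a (chr12:73907785-73907813): tggctgagagcaACGTGggctggggtggg
Ldha (chr7:46845758-46845786): cgtgggttcccgCACGTccgctgggctcc
P4ha1 (chr10:59323268-59323296): tgtgacagagcgCACGTagcgagggctgc
Pgk1 (chrX:106186957-106186985): aaatggaagtagCACGTctcactagtctc
The Egln1, Egln3 and Hif1a matches read ACGTG on the strand of the gene. Those of Ldha, P4ha1 and Pgk1 read its reverse complement CACGT. The E-box CACGTG, which joins both in 1 run of 6 bases, was in 3 of the 7 genes, Bnip3, Hif1a and Ldha (beside 8.09% of 27025 genes), and in Hif1a and Ldha it lay farther from the start than the matches printed.

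Across the 24 libraries, the tested gene whose log2 CPM was most like that of Bnip3 was mt-Rnr1, the 12S ribosomal RNA of mitochondria, with Pearson's r of 0.89 (Spearman's rho 0.91). It was 0.90 for deviations from group means and 0.86 over the 22 libraries left without those farthest from the median of mt-Rnr1. The next was Gm18588 (r = 0.89, rho 0.85). Both were picked as the highest of all genes, so no p is given, and the points share libraries and their scaling. mt-Rnr1 ran from 16129 to 28158 CPM (median 19682) at 30°C and from 21320 to 42396 CPM (median 34758) at 8°C in Cre- mice, a log2 fold change of 0.64 (SE 0.17, edgeR adjusted p = 0.021), and its cold difference in BATdKO mice was 0.12 (adjusted p = 0.797). Its 30°C levels in mice labelled BATdKO, from 25226 to 35036 CPM, had 3 of 6 mice above every Cre- mouse (log2 fold change 0.49, adjusted p = 0.286), and so had Bnip3 (0.20, adjusted p = 0.688).

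**Figure D5:**
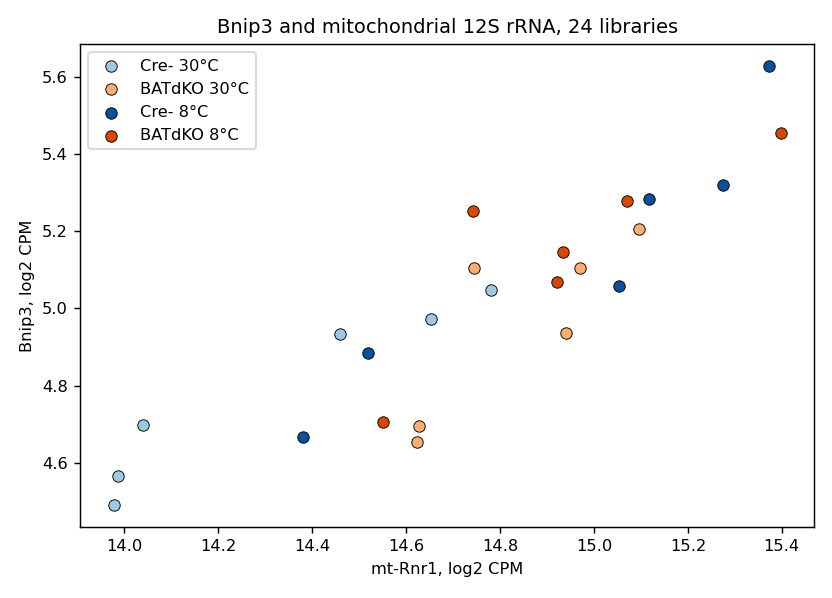
Log2 CPM of Bnip3 (vertical axis) against that of mt-Rnr1 (horizontal axis), with a point for each of 24 libraries coloured by group. The libraries lie along a rising line (r = 0.89), with Cre- mice at 30°C at the low end and mice of both genotypes at 8°C at the high end, and the groups overlap.

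In BATdKO mice the cold differences with the smallest p were those of Ulk1 and Gabarapl1. Ulk1 ran from 11.4 to 39.7 CPM at 30°C and from 34.4 to 48.5 CPM at 8°C, with 3 of 6 cold mice above every mouse at 30°C (log2 fold change 0.50, SE 0.18, edgeR adjusted p = 0.113). It passed by DESeq2 (adjusted p = 0.0777) and in fits without Cre- m3 at 30°C, BATdKO m4 at 30°C or BATdKO m5 at 8°C (0.0947, 0.041 and 0.0975), and was 0.33 (adjusted p = 0.13) without both m6 libraries of 30°C. Gabarapl1 had a log2 fold change of 0.20 (SE 0.085, adjusted p = 0.195). In Cre- mice the same genes were at -0.10 and 0.01, with adjusted p of 0.853 and 0.997, and the differences between genotypes in cold response were not past the threshold. Tfe3 had the lowest cold log2 fold change of the 10 in BATdKO mice. It was at 15.9 ± 2.37 CPM at 30°C and 13.4 ± 1.69 CPM at 8°C (log2 fold change -0.23, SE 0.12, edgeR adjusted p = 0.342), with overlapping groups. In Cre- mice its cold log2 fold change was -0.02. Apart from Bnip3, given above, the cold log2 fold changes of the other members lay between -0.19 (Map1lc3a in Cre- mice, adjusted p = 0.307) and 0.24 (Becn1 in BATdKO mice, adjusted p = 0.546).

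Beyond the 10 genes, 8 lists of other autophagy and lysosome genes, from initiation to lysosomal hydrolases, held 125 tested genes of 134 listed. Of these, 13 rose and 2 fell in the cold in Cre- mice (12% against 9.15% of all genes), and 8 rose and 2 fell in BATdKO mice (8% against 7.07%). The median log2 fold changes were 0.05 and 0.09, beside -0.02 and -0.00261 over all genes. Between genotypes 1 was higher and 1 lower at 8°C (1.6% against 1.82%) and none passed at 30°C. None of the 125 passed the test of a difference between genotypes in its cold response. The counts of single lists below stand beside these shares, and no list was tested as a set.

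At the start of the pathway, Mtor, the kinase that restrains ULK1 when nutrients suffice, went from 19.8 ± 4.56 to 33.8 ± 5.04 CPM in the cold in Cre- mice (log2 fold change 0.82, SE 0.13, edgeR adjusted p = 0.000171). Prkaa1, a catalytic subunit of AMPK, which activates ULK1, rose from 5.46 ± 1.84 to 8.82 ± 1.12 CPM in the same contrast (0.62, adjusted p = 0.0218). Neither passed the test of a difference between genotypes in its cold response (edgeR adjusted p = 0.33 for Mtor and 0.374 for Prkaa1). At 8°C Prkaa1 was lower in mice labelled BATdKO (5.18 ± 0.894 CPM, log2 fold change -0.79, SE 0.17, adjusted p = 0.0128). It was the only initiation gene of 9 to pass between genotypes, where 1.82% of all genes passed at 8°C. The 18 tested genes of membrane nucleation had none past the threshold in any of the 4 contrasts, with medians from -0.03 to 0.02.

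Of the 13 other genes of the ATG8 family and its conjugation, Atg12 rose in Cre- mice (0.30, adjusted p = 0.0795) and Atg3, the conjugating enzyme for LC3, rose in BATdKO mice (0.30, adjusted p = 0.0988). These calls were kept in 17 and 4 of the 24 fits that left out 1 mouse. Among 10 other cargo receptors, Ncoa4, which carries ferritin to autophagosomes, rose in Cre- mice (0.59, adjusted p = 0.0131) and the endoplasmic reticulum receptor Retreg1 fell (-0.29, adjusted p = 0.0549, 21 of 24 fits), while Calcoco1 fell in BATdKO mice (-0.48, adjusted p = 0.00625). The Retreg1 difference was -0.14 (edgeR adjusted p = 0.518) without the Cre- mice m1 and m3 of 30°C that held the most muscle RNA and -0.21 (0.201) without m3 alone. Of 11 other mitophagy genes, the mitochondrial ubiquitin ligase gene March5 rose in both genotypes (0.34 and 0.34, adjusted p = 0.0763 and 0.0973), kept in 17 and 6 of 24 fits. Usp30, whose product removes ubiquitin from mitochondria, fell in BATdKO mice (-0.46, adjusted p = 0.0792, 16 of 24 fits).

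Among 14 other tested genes of the TFEB family and of its control at the lysosome, 3 rose in the cold in Cre- mice. They were Lamtor1, a subunit of the lysosomal Ragulator (0.38, adjusted p = 0.0127), the folliculin partner Fnip1 (0.36, adjusted p = 0.0219) and the Rag GTPase gene Rragc (0.52, adjusted p = 0.0603, 18 of 24 fits). None of the 14 passed in BATdKO mice, and none of the 3 passed the test of a difference between genotypes. Of 37 tested lysosomal genes of the TFEB-bound CLEAR network, 5 rose and 1 fell in Cre- mice, and 5 rose and none fell in BATdKO mice. Over all genes, 5.57% rose and 3.59% fell in Cre- mice, and 3.76% rose and 3.31% fell in BATdKO mice. Lipa, the lysosomal acid lipase gene, rose from 105 ± 9.26 to 132 ± 7.46 CPM in Cre- mice (0.33, adjusted p = 0.0114) and from 106 ± 14.3 to 139 ± 8.46 CPM in BATdKO mice (0.39, adjusted p = 0.00284). Atp6v1d, a subunit of the proton pump, also passed in both (0.33 and 0.40), Atp6v0e (0.52) and Atp6v1a (0.30) in Cre- mice, and Scarb2 (0.41) and Atp6v1e1 (0.33) in BATdKO mice. Of these pump calls Atp6v1d in Cre- mice was kept in 22 of 24 fits, Atp6v1a in 20 and Atp6v1e1 in 19. The gene that fell was Npc1, the cholesterol exporter of the lysosome (-0.27, adjusted p = 0.0515, 20 of 24 fits), and its partner Npc2 was the gene that was higher in BATdKO mice at 8°C (144 ± 10.9 against 106 ± 10.5 CPM, log2 fold change 0.45, adjusted p = 0.0572, 19 of 24 fits). Of 13 fusion genes, Vps33a rose in BATdKO mice (0.33, adjusted p = 0.0695, 16 of 24 fits).

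Of 7 tested FoxO factors and atrophy genes, a group that in other tissues controls autophagy genes, Foxo1 was higher in mice labelled BATdKO at 8°C (42.7 ± 2.29 against 32.0 ± 3.74 CPM, log2 fold change 0.42, SE 0.090, edgeR adjusted p = 0.0127). It was the only gene of the 7 to pass there, where 1.82% of all genes passed. In the cold in BATdKO mice Depp1 rose (0.54, adjusted p = 0.00501) and Foxo4 (-0.42, adjusted p = 0.0779) and Sesn1 (-0.76, adjusted p = 0.0935) fell, calls kept in 17 and 14 of 24 fits. Over all genes 7.07% passed in that contrast. None of the 7 passed the test of a difference between genotypes in its cold response. Pdk1, of the hypoxia-response list, was lower in BATdKO mice at 8°C (21.7 ± 3.06 against 30.9 ± 3.68 CPM, log2 fold change -0.50, adjusted p = 0.0359).

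Among the 45 pairs of the 10 genes, the highest correlations of log2 CPM over 24 libraries were those of Map1lc3b with Ulk1 (r = 0.70, rho 0.68) and of Tfeb with Tfe3 (r = 0.70, rho 0.15), and the lowest was that of Tfe3 with Ulk1 (r = -0.62, rho -0.69). They are given as descriptions of pairs picked by their values. Without the 2 libraries farthest from the median of the first gene, the values were 0.69, 0.14 and -0.58. The Tfeb and Tfe3 pair thus rested on few libraries, and the shallow Cre- m4 at 30°C held 0 counts of Tfeb and 5 of Tfe3.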

How the data were processed

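RNA from 24 BAT samples was made into 3′-end libraries with the QuantSeq FWD kit. Per the study's methods, forward reads went through BBDuk trimming, STAR alignment to GRCm38 and gene counting in Rsubread, and the values the authors deposited are raw counts. The strand setting, the annotation release and the rule that left 12615 genes are not given in the sources used here, and reads of genes that overlap on the other strand could be counted for either. Each temperature has its own block of library numbers.

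edgeR 4.0.16 (R 4.3.3) was used for all tests: filterByExpr (130 genes removed, 12485 tested), TMM scaling, a mean for each of 4 groups and a quasi-likelihood F test on all 24 libraries, with Benjamini-Hochberg adjustment over all tested genes and the study's threshold of 0.1. SE was derived from each fold change and its F statistic, and 95% intervals use 20 residual degrees of freedom. CPM values use the TMM-scaled library totals, and correlations use log2 CPM with a prior count of 2. Permutation tests were exact and two-sided. Mice are called m1 to m6 by accession order. Precision is limited by counting error at depths of 699703 to 11527643 counts. No libraries of a group were alike within sampling noise. The scripts were tested on simulated data.

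All 10 members are named, with at most 4 genes per list and contrast by smallest p. Ctsd and Psap, the fifth risers among lysosomal genes in Cre- and BATdKO mice, fell outside that rule, and P4ha1, Pgk1 in Cre- mice, Npc1 and the pairs of members were named after their values were seen. The members and lists were chosen with earlier results of these data known. Alternatives were DESeq2 1.42.0, RLE scaling, no filter or a mean count of 10, robust dispersion, each contrast's groups alone, scaling within each temperature, a threshold of 0.05, both m6 libraries of 30°C left out and each mouse left out. The comparison over both temperatures, the fits without Cre- m1 and m3 of 30°C and the recounts of list genes were chosen after seeing the data. Positions are from GENCODE vM21 (GRCm38), and promoters from RefSeq (GRCm38.p6).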

Additional observations from a re-analysis of the deposited data

Results flagged for a closer look

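Of 40 groups of 6 mice (10 genes in 4 groups), 2 held a value farther from the rest than Dixon's 95% limit allows, and chance flags about 1 in 20 groups. Becn1 in BATdKO mouse m6 at 30°C was at 8.71 CPM, where the other 5 mice of that group were between 3.73 and 5.13 CPM. The deleted genes and Ucp1 of that library were at levels close to those of mice labelled Cre-. Tfeb in Cre- mouse m4 at 30°C was at 0 CPM, where the others were between 3.24 and 4.87 CPM. That library has 699703 counts in all, the fewest of the 24, and a count of 0 there allows a level of up to 4.10 CPM (3 counts, counting error only), within the range of the others.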

How the results depend on the processing

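No paired analysis was possible because the labels give mouse numbers that no 2 groups share. Of 1642 fold changes of the 10 genes under the alternatives, 1549 kept their direction and their side of the threshold, 13 were weaker, 20 stronger and 60 reversed, none with a log2 fold change above 0.18 in the main analysis. Of 42 calls of list genes, 25 were kept in each fit that left out 1 mouse and none changed sign.

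The number of the 10 genes called changed as follows. Under DESeq2 it was 1 for genotype at 30°C (Pink1) and 1 for cold in BATdKO mice (Ulk1). With only the groups of the contrast it was 3 for genotype at 8°C (Pink1, Gabarapl1 and Ulk1) and 0 for cold in Cre- mice, which was also the count at a threshold of 0.05. Without both m6 libraries of 30°C it was 2 for genotype at 30°C (Pink1 and Becn1), 1 at 8°C (Pink1) and 2 for cold in Cre- mice (Bnip3 and Pink1, -0.27, adjusted p = 0.0433). Without Cre- m1 and m3 of 30°C it was 1 for genotype at 8°C (Pink1), 0 for cold in Cre- mice and 1 for cold in BATdKO mice (Ulk1, edgeR adjusted p = 0.0959). Leaving out 1 mouse gave 0 to 1 for genotype at 30°C, 0 to 1 for cold in BATdKO mice, 0 to 2 for cold in Cre- mice and 1 to 2 over both temperatures, where Gabarapl1 reached an adjusted p of 0.10 without BATdKO m1 at 30°C, and Pink1 passed for cold in Cre- mice without Cre- m6 at 30°C (adjusted p = 0.0694).

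Over all genes, calls for genotype at 30°C went from 0 to 90 under DESeq2 and to 500 without both m6 libraries, and from 0 to 369 when 1 mouse was left out, 369 without Cre- m6 and 67, 47 and 41 without Cre- m2, BATdKO m4 and BATdKO m6. For genotype at 8°C they went from 227 to 477 with only its groups and 353 without Cre- m1 and m3 of 30°C, and lay between 138 (without BATdKO m5 at 8°C) and 276 when 1 mouse was left out. Over both temperatures they went from 358 to 674 and 164 in those library subsets (both m6, then m1 and m3) and lay between 248 and 556. For the interaction they went from 12 to 51 under DESeq2, 21 with robust dispersion, 44 without both m6 libraries and 25 without m1 and m3, and lay between 7 and 37. For cold in Cre- mice they went from 1143 to 684 without m1 and m3, and for cold in BATdKO mice, from 883, they lay between 574 (without BATdKO m4 at 8°C) and 1069 when 1 mouse was left out.

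The log2 fold changes that changed sign were all of genes not called. Under DESeq2 Gabarapl1 for cold in Cre- mice was -0.0056. Without m1 and m3 it was -0.021, Pink1 for cold in Cre- mice was 0.0012 and its interaction -0.052. Without both m6 libraries Map1lc3b for genotype at 30°C was 0.0022, Sqstm1 -0.0195 and Tfeb for cold in BATdKO mice 0.0041. Leaving out 1 mouse, the ranges for genotype at 8°C were -0.0037 to 0.15 for Becn1, -0.10 to 0.095 for Bnip3, -0.0080 to 0.046 for Sqstm1, -0.036 to 0.048 for Tfe3 and -0.097 to 0.091 for Tfeb. For genotype at 30°C they were -0.012 to 0.083 for Map1lc3a, -0.028 to 0.059 for Sqstm1 and -0.14 to 0.036 for Tfeb. For cold in Cre- mice they were -0.040 to 0.064 for Gabarapl1 and -0.056 to 0.045 for Tfe3, for cold in BATdKO mice -0.20 to 0.0049 for Tfeb, and for the interaction -0.041 to 0.045 for Sqstm1 and -0.061 to 0.15 for Tfeb. The cause of these changes was not tested. Depth limits Tfeb and Becn1 most, and 6 mice per group limit all.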
